A study of Mus musculus with 37 samples.

Results

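The genotype difference in resting macrophages was read from 2 libraries of polyA RNA, 1 from wild-type (WT) and 1 from Arntl-/- bone marrow-derived macrophages (BMDMs), taken at 0 h, before the Toll-like receptor 4 (TLR4) agonist Kdo2-lipid A (KLA) was added. The comparison asks which messages differ without Bmal1 before KLA treatment. The libraries are 2 of the 8 RNA libraries used here and of the 37 samples of the series, and they were chosen by their labels alone. The table held 24016 RefSeq genes. Of these, 15607 had a read in either 0 h library, and the 10215 genes with a mean of at least 100 scaled reads over both libraries were analyzed, whatever their direction.

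BMDMs were grown from bone marrow for 6 days in M-CSF, the growth factor that drives macrophage differentiation. Both libraries came from male mice, 6 to 9 weeks old, with the strain labelled C57BL/6J. Arntl-/- mice lack Bmal1 in every tissue, so the bone marrow precursors lacked it as well as the macrophages. The study's account of its RNA sequencing names WT littermates as controls. Its methods name purchased C57BL/6J mice as a source of the macrophages, and the study does not reconcile these statements. Each genotype had 1 library at 0 h, so no difference has a replicate check, no test between genotypes was possible, and the 95% intervals given below are exact binomial intervals that cover the counting of reads or genes only.

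Bmal1, the product of Arntl, pairs with Clock or its relative Npas2 and activates genes through E-box elements with the letters CACGTG. Among the targets are the Period (Per) and Cryptochrome (Cry) genes, whose proteins repress Bmal1-Clock, and Nr1d1 and Nr1d2, which encode the nuclear receptors Rev-erb alpha and Rev-erb beta. Rev-erb proteins in turn repress Arntl, Npas2, Cry1 and Nfil3, and in macrophages they also repress inflammatory genes.

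Reads on genes, recovered from FPKM and gene length, numbered 13080318 in the WT library and 18166576 in the Arntl-/- library. FPKM (reads per kilobase of exon, per 10000000 reads here) are given below after scaling by size factors, 1.01 for WT and 1.07 for Arntl-/-, as scaled FPKM. All log2 ratios are Arntl-/- over WT on the log2(scaled FPKM + 0.1) scale. The 10 macrophage markers, among them Csf1r, Emr1, Cd68, Mertk and Lyz2, were abundant in both libraries, with summed scaled FPKM of 23340 in WT and 19635 in Arntl-/- cells, so the label of the cells was borne out in both. In bulk RNA, fewer cells of a type and less RNA per cell cannot be told apart.

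At 0 h, 268 genes (2.62% of those analyzed) were at least 1.5-fold higher in the Arntl-/- library and 166 genes (1.63%) were at least 1.5-fold lower, or 434 genes (4.25%) either way. The other 9781 genes, 95.8%, lay within 1.5-fold. At 2-fold, 40 genes were higher and 21 lower. The counting interval lay wholly past 1.5-fold for 73 of the higher genes (0.715% of those analyzed) and 49 of the lower genes (0.48%). It excluded equal expression for all of the 434 genes, which the read minimum and the 1.5-fold call largely fixed in advance. The division between the 2 directions moved with the scaling. With the values as deposited, 401 genes were higher and 107 lower, and after a correction for expression level 213 were higher and 205 lower. The genes nearest to the threshold were Ndufaf7 (log2 ratio 0.586) inside it and Trmt44 (0.584) outside it on the higher side, and Mxd4 (-0.586) and Fbln2 (-0.584) on the lower side.

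**Figure D1:**
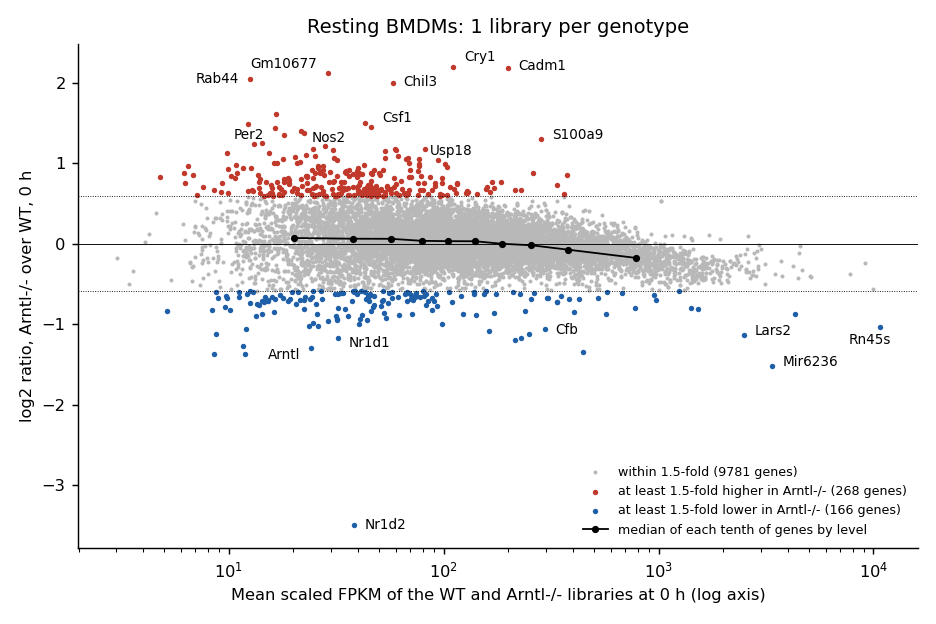
Each point is 1 of the 10215 genes analyzed, with its mean scaled FPKM at 0 h on a log axis and its log2 ratio of Arntl-/- over WT, from 1 library per genotype; dotted lines mark 1.5-fold, and the black line joins the medians of 10 equal groups of genes by level. Cry1 and Cadm1 stood highest and Nr1d2 lowest, and the medians ran from 0.07 in the lowest group to -0.18 in the highest.

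The deleted gene was read first. Arntl (NM_007489; chromosome 7, 120350979 to 120457640 of mm9) had a scaled FPKM of 34.3 in the WT library and 13.9 in the Arntl-/- library at 0 h, from 210 and 125 reads. It was thus 2.46-fold lower (log2 ratio -1.30, counting interval -1.64 to -0.98), and it was also lower in the Arntl-/- library at 6, 24 and 48 h, with scaled FPKM of 32.3 and 11.3, 35.6 and 18.8, and 38.7 and 20.2. The reads that remained were counted over all exons of the transcript, and which exons they came from was not analysed here.

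The partners of Bmal1 differed from each other. Clock, the usual partner, had a scaled FPKM of 50.3 in WT and 55.4 in Arntl-/- cells (log2 ratio 0.14, counting interval 0.03 to 0.25). Npas2, which can replace Clock, had 0 reads in the WT library and 26 in the Arntl-/- library, which is at least 5.88-fold higher when 3 reads are taken as the limit of detection in the WT library. At 6, 24 and 48 h Npas2 had 8, 0 and 0 reads in WT and 23, 6 and 11 reads in Arntl-/- cells, so the Arntl-/- library held more at every time, at very low levels. Arntl2, a paralog of Arntl, had 6 and 22 reads at 0 h, and the counting interval of its log2 ratio, -0.03 to 2.91, included equal expression.

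The Rev-erb genes stood at the bottom of the distribution. Nr1d2 had a scaled FPKM of 70.6 in the WT library and 6.15 in the Arntl-/- library, from 693 and 89 reads. This 11.3-fold difference (log2 ratio -3.50, counting interval -3.85 to -3.20) was the largest decrease among the genes analyzed. Nr1d1 had 44.5 and 19.6 (2.26-fold lower, log2 ratio -1.18, counting interval -1.47 to -0.90). Nr1d2 was lower than Nr1d1 in proportion at each of the later times too, with log2 ratios of -4.18, -5.06 and -4.57 for Nr1d2 and -1.42, -1.38 and -1.15 for Nr1d1. Among the ROR receptors, which compete with the Rev-erbs for the same DNA element, Rora had 18.7 in both libraries and Rorb had 0 and 1 reads.

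The repressors of Bmal1-Clock were not lower. Cry1 had a scaled FPKM of 39.6 in the WT library and 182 in the Arntl-/- library, a 4.58-fold difference (log2 ratio 2.19, counting interval 2.01 to 2.39) and the largest increase among the genes analyzed. Per2 had 8.84 and 24.0 (2.70-fold, log2 ratio 1.43, counting interval 1.14 to 1.76), and Cry2 had 37.6 and 58.1 (1.54-fold, log2 ratio 0.62, counting interval 0.43 to 0.82). Cry2 came to 0.56 after the correction for expression level, just under 1.5-fold. Per1 and Per3 lay within 1.5-fold, with log2 ratios of 0.29 and 0.25, and the interval of Per3 (-0.06 to 0.56) included equal expression. Cry1 and Per2 were past 1.5-fold at all 4 times, with Cry1 at 46.7, 53.5 and 35.7 in WT and 154, 208 and 187 in Arntl-/- cells at 6, 24 and 48 h. The casein kinase genes Csnk1d and Csnk1e, whose products set the turnover of Per proteins, had log2 ratios of -0.09 and -0.45. Over the 8 analyzed members of the list of periods, cryptochromes and clock kinases, 3 were at least 1.5-fold higher and 0 lower, against 2.62% and 1.63% of all genes.

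The promoter sequences of the genes at the 2 ends are shown to place these values beside the E-box. Each stretch holds the 250 bases before the RefSeq start site (build GRCm38.p6, credited to RefSeq), written 5′ to 3′ along the gene, and all 3 genes lie on the minus strand. Capitals mark CACGTG, which reads the same on both strands, and the related CACGTT read on either strand (AACGTG).
Cry1, chr10:85185055-85185304: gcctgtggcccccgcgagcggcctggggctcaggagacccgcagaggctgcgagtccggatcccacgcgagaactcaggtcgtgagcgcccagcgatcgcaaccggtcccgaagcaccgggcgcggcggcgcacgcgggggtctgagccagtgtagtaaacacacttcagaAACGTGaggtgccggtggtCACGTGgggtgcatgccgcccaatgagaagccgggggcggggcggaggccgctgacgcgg
Nr1d1, chr11:98775378-98775627: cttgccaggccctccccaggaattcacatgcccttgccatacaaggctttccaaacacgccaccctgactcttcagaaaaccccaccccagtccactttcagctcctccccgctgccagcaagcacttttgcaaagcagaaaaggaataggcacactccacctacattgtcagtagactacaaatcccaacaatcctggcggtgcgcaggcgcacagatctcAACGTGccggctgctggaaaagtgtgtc
Nr1d2, chr14:18239107-18239356: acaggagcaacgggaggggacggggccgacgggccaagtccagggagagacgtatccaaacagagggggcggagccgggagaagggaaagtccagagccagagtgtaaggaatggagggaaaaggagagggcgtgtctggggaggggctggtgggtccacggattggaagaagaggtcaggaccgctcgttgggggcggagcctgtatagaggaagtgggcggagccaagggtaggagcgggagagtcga
Cry1 thus held CACGTG at position -60 and AACGTG at -79 from the start site, Nr1d1 held AACGTG at -28, and Nr1d2 held neither in this window. Of the 23 clock-list genes with a promoter entry, 5 held CACGTG (Cry1, Per1, Tef, Ciart and Bhlhe41) and 4 held CACGTT on either strand (Cry1, Cry2, Nr1d1 and Rorb). The 0 h log2 ratios of the 5 genes with CACGTG ran from 2.19 for Cry1 to -0.01 for Bhlhe41. Per2 and Cadm1 had no entry.

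**Figure D2:**
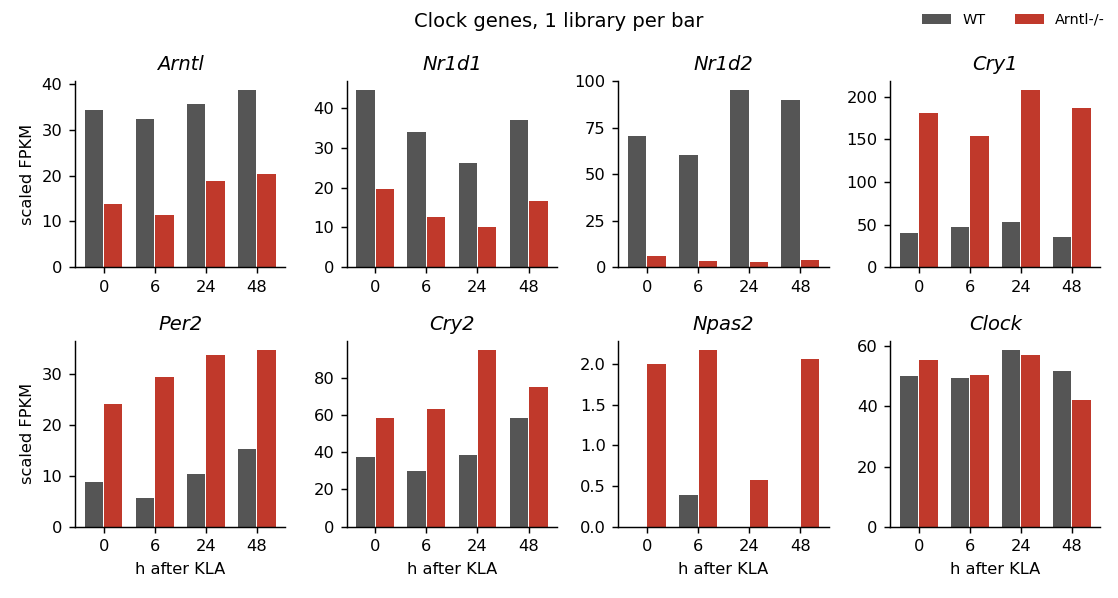
Bars give the scaled FPKM of 8 clock genes in WT (grey) and Arntl-/- (red) BMDMs at 0, 6, 24 and 48 h after KLA, with 1 library per bar and a separate axis from 0 for each gene. Nr1d2 was 70.6 against 6.15 and Cry1 39.6 against 182 at 0 h, and the order of the genotypes was the same at the later times for both.

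Of the list of clock output genes, none of the 9 analyzed members was past 1.5-fold either way, a count near the 4.25% of all genes. Above 0 were 7 of the 9, where 47.7% of all genes were, and their median log2 ratio was 0.14, against -0.01 over all genes. The PAR bZIP factors Tef and Dbp, which carry clock timing to metabolic genes, had log2 ratios of 0.35 and 0.19, the repressors Bhlhe40 and Bhlhe41 had 0.38 and -0.01, and Nfil3, which opposes Dbp, had 0.11. Tsc22d3, a glucocorticoid-responsive gene, was nearest to 1.5-fold (211.9 and 304.6, log2 ratio 0.52), and the kinase gene Wee1 was lower (108.4 and 86.7, -0.32). Ccrn4l (Nocturnin, 0.14) and Nampt (0.07) were close to equal. Usp2, a ubiquitin protease gene of the clock, had a log2 ratio of -0.98 from 88 and 65 reads and Ciart 0.40 from 42 and 82 reads, and both were under the read minimum.

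The 15 largest increases ran from a log2 ratio of 1.25 to 2.19. Beside Cry1 and Per2 they were Cadm1, Gm10677, Rab44, Chil3, Akap7, Slc25a43, Trim6, Csf1, Nos2, Dgka, Clec2i, S100a9 and Rabgap1l. Cadm1, a cell adhesion molecule of the immunoglobulin superfamily (chromosome 9, 47338435 to 47661468), had 71.8 in WT and 326 in Arntl-/- cells (4.54-fold, counting interval of the log2 ratio 2.07 to 2.30). Gm10677 (10.8 and 47.1, log2 ratio 2.12) is a non-coding entry that lies within Cadm1, from 47607243 to 47626291. Reads were counted on both strands, so its value cannot be told apart from that of Cadm1. Chil3, which encodes the secreted chitinase-like protein Ym1, had 23.2 and 92.7 (3.99-fold). Rab44, a large Rab GTPase gene, had 4.84 and 20.2 (4.11-fold). Csf1, the gene for M-CSF itself, had 24.6 and 67.3 (2.73-fold, counting interval of the log2 ratio 1.21 to 1.70). At later times Csf1 came to log2 ratios of 0.54, -0.13 and -0.07, so its difference past 1.5-fold was seen at 0 h and at none of the 3 later times, and the difference between times was not tested.

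The 15 largest decreases ran from -1.06 to -3.50, and several were small RNA or histone genes. Mir6236 (4975 and 1740, log2 ratio -1.52), Rpph1, the RNA of RNase P (636 and 250.03, -1.35), and the near-identical histone genes Hist1h2ao and Hist1h2ap (-1.20 and -1.17) were among them. Histone reads can be split between copies, so these values are uncertain. Lars2, a mitochondrial leucyl-tRNA synthetase gene (3439 and 1558, -1.14), was also among the 15. Its log2 ratio was 1.06 at 6 h, where that of Mir6236 was 1.25, and which RNA its reads came from was not analysed here. Rn45s, the 45S precursor of ribosomal RNA, was at 14488 and 7034 (-1.04, or -0.52 and under 1.5-fold after the correction for level), and Rmrp, the RNA of RNase MRP, at 518 and 287 (-0.85). The RNAs Rpph1, Rn45s and Rmrp and most histone messages carry no poly(A) tail, and Rn45s took 1.37% (1.36 to 1.38) of reads in the WT library and 0.705% (0.701 to 0.709) in the Arntl-/- library. The share of Rn45s ran from 0.705% to 3.19% over the 8 libraries. Its part in the other differences was not tested. Without Rpph1, Rn45s, Rmrp, Lars2, the histone genes and the small RNA genes, 268 genes were higher and 158 lower (this alternative was added once the values were known).

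Of the other large decreases, Nes, encoding the intermediate filament nestin, had 17.3 and 6.59 (2.59-fold lower), Tjp1, encoding the tight junction protein ZO-1, had 12.4 and 4.72 (2.59-fold lower), and Col6a3, a collagen VI chain, had 12.03 and 5.46 (log2 ratio -1.13). Fcrls, an Fc receptor-like gene of myeloid cells, was far more abundant, with 344 and 158 (2.18-fold lower, from 1443 and 976 reads). Fcrls was lower at 6 and 24 h as well (-0.94 and -0.92), and at 48 h its log2 ratio was -0.39. Angel1 (-1.27), Tmem160 (-1.09) and Pcyt1b (-1.06) completed the group.

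Interferon-stimulated genes leaned higher in the Arntl-/- library before KLA was added. Of the 40 analyzed members of this list, 37 had a log2 ratio above 0, where 47.7% of all genes did. At least 1.5-fold higher were 8 members and lower 0, against 2.62% and 1.63% of all genes, and the median log2 ratio was 0.32. Under the 12 alternatives of scaling, pseudocount, filter and level correction this median ran from 0.26 to 0.40. Usp18, the protease that removes ISG15 and dampens the interferon receptor, had 50.2 in WT and 104 in Arntl-/- cells (2.07-fold, counting interval of the log2 ratio 0.81 to 1.30). Oas2 and Oasl2, of the 2′-5′ oligoadenylate synthetase family, had 122 and 198 (1.62-fold) and 165 and 262 (log2 ratio 0.67). Mx1, Gbp2, Ifi44, Rtp4 and Xaf1 had log2 ratios of 0.67, 0.70, 0.68, 0.65 and 0.59. Of these 8 genes, Xaf1 lost the call with a pseudocount of 1 and with the corrections for level and length.

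The regulators named here lay within 1.5-fold. Irf7, Irf9 and Stat2, which carry the interferon signal to DNA, had log2 ratios of 0.25, 0.36 and 0.21, and Irf1 had 177.5 and 216.6 (log2 ratio 0.29). Ifi205 was the member furthest below 0 (-0.37), followed by Bst2 and Zbp1. The medians of the same 40 genes in the other libraries were 0.13 at 6 h, 0.43 at 24 h and 0.04 at 48 h.

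Of the genes induced through NF-kB and TLR4, a few were past 1.5-fold before KLA. Of the 43 analyzed members, 4 were at least 1.5-fold higher and 1 lower, against 2.62% and 1.63% of all genes, and 29 had a log2 ratio above 0, where 47.7% of all genes did. The median log2 ratio was 0.10, or 0.03 at a minimum of 400 reads and 0.29 with at most 0.5 reads per base. Nos2, encoding the inducible nitric oxide synthase, had 11.9 in WT and 31.5 in Arntl-/- cells (2.63-fold, counting interval of the log2 ratio 1.08 to 1.74). Il1b, the precursor of interleukin-1 beta, had 46.2 and 92.1 (1.99-fold, 0.70 to 1.30). The chemokine gene Cxcl3 had 177 and 281 (1.59-fold) and Csf3, encoding G-CSF, had 23.3 and 37.3 (1.60-fold). Under KLA, Nos2 in WT cells stood at 105, 115 and 273 and Il1b at 162, 594 and 428 at 6, 24 and 48 h. For these genes the resting Arntl-/- level lay below each of those. Other inducible genes such as Tnf, Ptgs2, Cxcl2, Nfkbia and Ccl2 lay within 1.5-fold. Among 13 CC and CXC chemokines Cxcl3 was the 1 past 1.5-fold (4.25% of all genes were), and their median of -0.13 turned to 0.10 after the correction for level. Marco, a scavenger receptor that is also on this list, was the member that was lower (1947 and 1111, 1.75-fold lower).

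**Figure D3:**
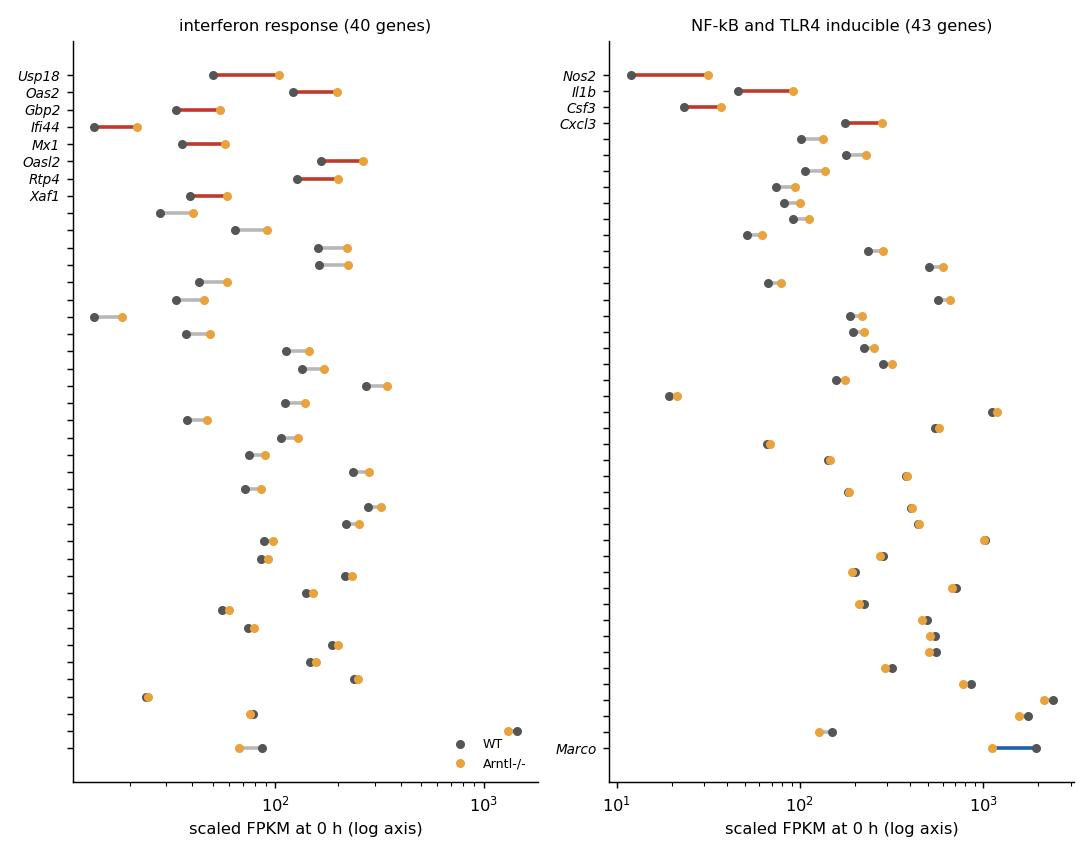
For each analyzed member of the interferon list (left) and the NF-kB and TLR4 list (right), grey and orange points give the scaled FPKM in the WT and Arntl-/- library at 0 h on a log axis, joined by a line that is red or blue where the fold was at least 1.5 upward or downward, and those genes are named. The orange points lie to the right of the grey ones for 37 of 40 interferon genes, and Nos2 and Il1b have the widest gaps upward on the right.

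Genes with other parts in inflammation were examined next. Cx3cr1, the fractalkine receptor, had 51.5 in WT and 102 in Arntl-/- cells at 0 h (1.98-fold, log2 ratio 0.98, counting interval 0.82 to 1.15). It was the only one of 9 chemokine and chemoattractant receptors past 1.5-fold (4.25% of all genes were), and it stayed higher at each later time, the WT libraries standing at 60.8, 111 and 65.6 against 172, 233 and 266. Hif1a (253.6 and 274.2, log2 ratio 0.11), Csf1r (1673 and 1371, -0.29) and Mmp9 (2136 and 1843, -0.21) lay within 1.5-fold. After the correction for expression level Csf1r came to -0.02 and Mmp9 to 0.09. None of the 20 Toll-like receptor and adaptor genes was past 1.5-fold, Tlr4 itself having 165 and 182. Among 19 analyzed immediate early genes Egr1 was higher (41.7 and 65.2, log2 ratio 0.65), and the phosphatase gene Dusp2 and Jund were lower (-0.75 and -0.62). Thus 1 was higher and 2 lower, against 2.62% and 1.63% of all genes, and 16 lay within 1.5-fold. Jund came to -0.54 with the values as deposited, under 1.5-fold.

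Among macrophage transcription factors, 2 members of the C/EBP family were lower. Cebpb had 740 in the WT library and 402 in the Arntl-/- library (1.84-fold lower, counting interval of the log2 ratio -0.97 to -0.79), and Cebpa had 104.1 and 61.2 (1.70-fold lower, -0.94 to -0.59). Spi1, encoding the lineage factor PU.1, had 1259 and 1025 (log2 ratio -0.30). Of the 19 analyzed factors, 1 (Egr1) was at least 1.5-fold higher and these 2 were lower, against 2.62% and 1.63% of all genes. Neither was lower past 1.5-fold at a later time. The log2 ratios of Cebpb were 0.87, 0.03 and 0.70 and those of Cebpa -0.13, -0.23 and 0.05 at 6, 24 and 48 h, so that Cebpb was past 1.5-fold the other way at 6 and 48 h.

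In other lists, 1 to 3 members were at least 1.5-fold lower, where 1.63% of all genes were. Cfb, complement factor B of the alternative pathway, had 399 and 192 (2.08-fold lower, counting interval of the log2 ratio -1.15 to -0.97), the 1 past 1.5-fold of 10 analyzed complement genes, and 9 of them had a ratio below 0, with a median of -0.28, which came to -0.05 after the correction for expression level. Apoe, the lipid carrier and LXR target, had 1790 and 1028 (1.74-fold lower), the 1 member past 1.5-fold among 10 LXR genes. The scavenger receptor genes Marco and Cd163 (13.8 and 8.61) and the receptor kinase gene Axl (10.5 and 6.89), which takes part in the uptake of dying cells, were the lower members among 16 Fc and scavenger receptors, with 0 higher (1.63% and 2.62% of all genes). Axl came to -0.52 with the values as deposited, under 1.5-fold. Nqo1, a quinone reductase and Nrf2 target, had 159 and 86.9 (log2 ratio -0.88), the 1 member past 1.5-fold among 24 Nrf2 genes, a share near the 4.25% of all genes. Timp3, a metalloproteinase inhibitor gene, had a log2 ratio of -0.82, the 1 past 1.5-fold of 11 in its list. Marco and Apoe came to -0.54 after the correction for expression level, under 1.5-fold.

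The most abundant genes leaned lower in the Arntl-/- library, and the lists above stand beside that. With the genes in 10 equal groups by level, the median log2 ratio was -0.18 in the highest group and 0.07 in the lowest. All 79 analyzed cytoplasmic ribosomal protein genes had a ratio below 0, with a median of -0.37, although 2 of them, Rpl39 (-0.70) and Rps29 (-0.59), passed 1.5-fold. After the correction for level these came to -0.50 and -0.35. Oxidative phosphorylation (76 genes, median -0.17), the proteasome (31 genes, -0.18), Nrf2 genes (24 genes, -0.23), iron handling (13 genes, -0.29) and heat shock genes (12 genes, -0.26) had medians below 0 as well. None of their genes was at least 1.5-fold higher, where 2.62% of all genes were, and 0, 0, 1, 1 and 0 were lower, where 1.63% were. After the correction for level these 5 medians came to -0.06, -0.06, -0.07, -0.06 and -0.16. The 10 macrophage markers had a median of -0.24, and after the correction for expression level it was 0.03, with the sign turned.

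Depth moved with the medians of the ribosomal protein genes and of the most abundant genes. The Arntl-/- library held 1.39 times the reads of the WT library at 0 h and 1.44 times at 24 h, and the ribosomal protein median was -0.37 and -0.33. At 6 h, where the Arntl-/- library held 0.572 times the reads, the median was 0.58, and at 48 h, where it held 0.934 times, it was -0.01. The 1022 genes with the highest levels had medians of -0.18, 0.33, -0.14 and -0.07 at 0, 6, 24 and 48 h. With 1 library per condition, depth and genotype cannot be told apart for these lists. After the correction for expression level the ribosomal protein median at 0 h was -0.15.

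Several further lists held few or no genes past 1.5-fold, where 4.25% of all genes were. At that share, lists of this size would hold few such genes or none. None of the 50 analyzed cell cycle and replication genes, 38 lysosomal genes, 28 glycolysis and HIF-1 genes, 28 genes of the unfolded protein response and ATF4 or 21 sterol synthesis genes was past 1.5-fold, with medians of -0.08, -0.10, -0.05, -0.03 and 0.05. Of 14 fatty acid synthesis genes, the desaturase gene Scd1 was the 1 past 1.5-fold and was higher (11.6 and 17.6, log2 ratio 0.59). None of 12 integrin genes, 9 C-type lectin receptor genes or 4 MHC class II presentation genes was past 1.5-fold. Among 7 analyzed genes of alternative activation, Chil3 was higher and Cd163 lower, where 2.62% and 1.63% of all genes were.

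**Figure D4:**
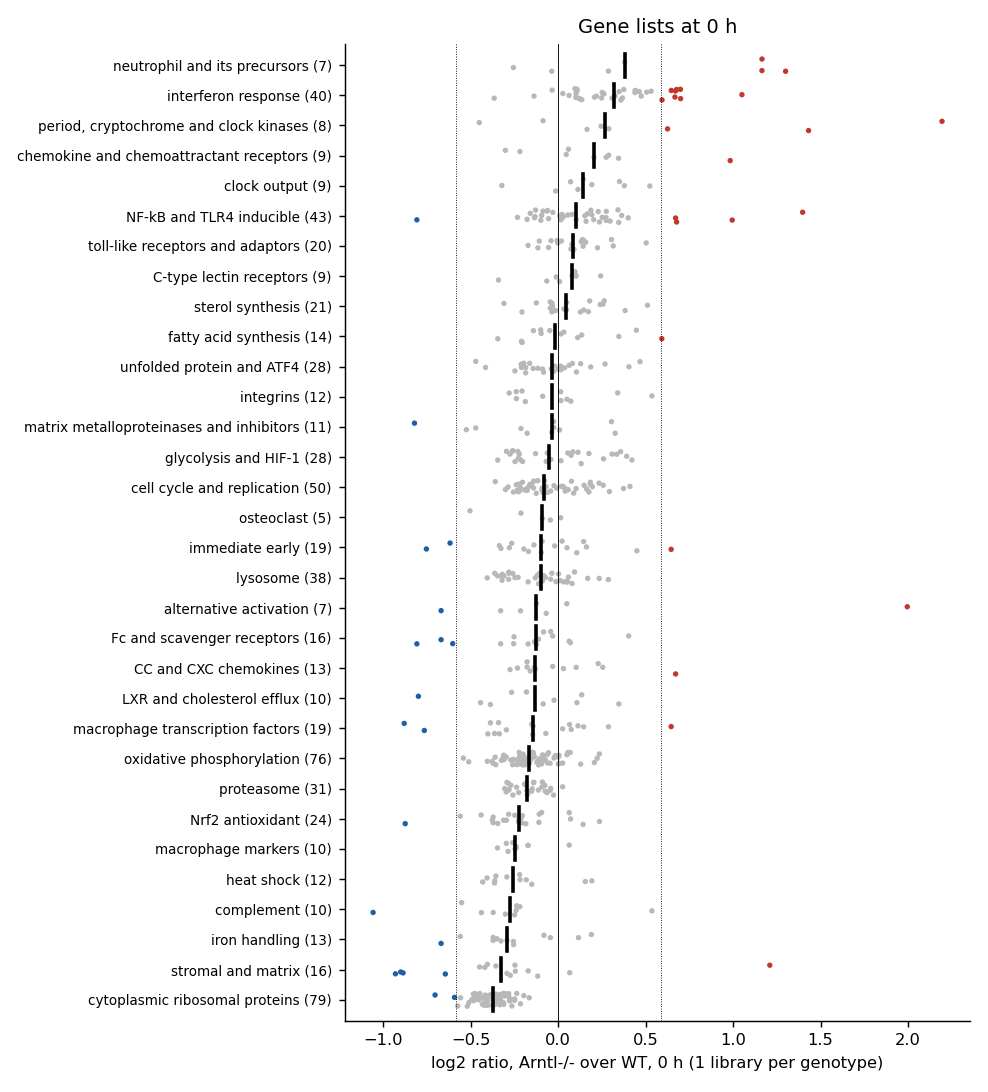
Each point is the log2 ratio of Arntl-/- over WT at 0 h of 1 analyzed gene, for the lists with at least 5 analyzed members (number in brackets), and the black bar is the median of the list; red and blue points lie past 1.5-fold (dotted lines), from 1 library per genotype. Interferon genes lie mostly to the right of 0 and all 79 ribosomal protein genes to the left.

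Markers of other cells were examined because BMDM cultures can hold a few precursors and stromal cells. Of 15 neutrophil genes 7 were analyzed, and S100a9 (164 and 403), Ltf (18.9 and 42.4) and Ngp (37.2 and 83.4) were at least 1.5-fold higher in the Arntl-/- library, with log2 ratios of 1.30, 1.16 and 1.16, so 3 were higher and 0 lower, against 2.62% and 1.63% of all genes. The median of the list was 0.38. It turned to -0.04 at a minimum of 400 reads and was 0.91 with no minimum, 0.66 at a scaled FPKM of at least 1, 0.59 after the length correction and 1.16 with at most 0.5 reads per base. Camp had 0 reads in WT and 23 in Arntl-/- cells, while Mpo, Elane and Ctsg, which mark early granulocyte precursors, had 0 reads in both. The summed scaled FPKM of the list was 2447 in WT and 2792 in Arntl-/- cells, most of it from Mmp8, Lcn2 and S100a8, which lay within 1.5-fold. The part of neutrophil-lineage cells in the other differences, including that of Chil3, was not tested.

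Stromal and matrix genes leaned lower. Of 24 genes 16 were analyzed, and Postn (70.4 and 36.9), Col3a1 (80.4 and 43.4), Acta2 (46.8 and 25.01) and Sparc (91.0 and 58.1) were at least 1.5-fold lower while Dcn (16.8 and 39.1) was higher, so 4 were lower and 1 higher, against 1.63% and 2.62% of all genes. The median log2 ratio was -0.32 and 14 of the 16 were below 0, and the medians at 6, 24 and 48 h were -0.51, -0.53 and -0.70. The summed scaled FPKM of the list was 991 in WT and 758 in Arntl-/- cells, and Lepr and Mgp had 0 reads in both. Col6a3 and Nid2, which encode matrix proteins, and Aebp1 were lower beside them, and the part of stromal cells in those values was not tested.

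Markers of other lineages were mostly low. No gene of the T and NK cell list or of the mast cell and basophil list was analyzed, and their summed scaled FPKM were 3.52 and 3.43 in WT and 8.38 and 3.51 in Arntl-/- cells. The B cell list summed to 125 and 131, mostly from Blnk, which lay within 1.5-fold. Of this list 2 genes were analyzed and Cd22 was lower (15.6 and 10.3, log2 ratio -0.60), while Pax5 and Vpreb3 had 0 reads in both libraries. The erythroid and megakaryocyte list summed to 2202 and 1843, nearly all from the chemokine gene Pf4 (2158 and 1782), and neither of its 2 analyzed genes was past 1.5-fold. The hemoglobin genes Hba-a1, Hba-a2, Hbb-b1 and Hbb-b2 had 0 reads in both, 1 dendritic cell gene and 1 endothelial gene were analyzed, and none of these or of the 5 analyzed osteoclast genes was past 1.5-fold. The 4 analyzed Y-linked genes had a median log2 ratio of 0.03 with none past 1.5-fold. None of the 3 analyzed genes known to differ between laboratory mouse strains and substrains was past 1.5-fold.

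At or under the detection limit of 3 reads in the WT library and over it in the Arntl-/- library were 992 genes, and 475 genes were so in the opposite direction, most of them with few reads in the other library as well. The Arntl-/- library was the deeper, with 18166576 reads against 13080318, so more genes pass a fixed limit there at equal expression. The 5 with most reads each way are given. With 0 reads in WT cells, Muc19, a gel-forming mucin gene, had 57 reads in Arntl-/- cells, which is at least 12.9-fold higher, and Cml1, an acetyltransferase gene, had 49 (at least 11.1-fold higher). Ccl27b, Gm13306 and LOC100861978 are 3 entries for the same stretch of the genome with the same 54 reads in Arntl-/- cells and 0 in WT, at least 12.2-fold higher. In the opposite direction, Efnb3, the ephrin-B3 gene, had 25 reads in WT and 0 in Arntl-/- cells (at least 12.3-fold lower), Gpx8, a peroxidase gene, had 24 (at least 11.8-fold lower) and Ogn, the gene of the matrix protein osteoglycin, had 23 (at least 11.3-fold lower). Cd1d2 had 27 reads in WT and 2 in Arntl-/- cells (log2 ratio -4.07, counting interval -7.43 to -2.32), and Mir2861 had 25 and 3 (-3.61, -5.99 to -1.91). In the later libraries, Cml1 had 46, 16 and 16 reads in WT and 28, 35 and 11 in Arntl-/- cells at 6, 24 and 48 h. Muc19 had at most 2 reads in each of the 6 later libraries, and the Ccl27b entries had 51 reads in WT and 6 in Arntl-/- cells at 6 h, while Efnb3 had 10, 12 and 0 reads in WT and 2, 0 and 0 in Arntl-/- cells at 6, 24 and 48 h.

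The 0 h calls were then followed in the later libraries, which entered the 0 h ratios only through the scaling over 8 libraries. With the 2 libraries at 0 h scaled alone, 285 genes were higher and 153 lower. Of the 268 higher genes, 9.33% (6.13 to 13.5), 19.8% (15.2 to 25.1) and 23.5% (18.6 to 29.0) were also at least 1.5-fold higher at 6, 24 and 48 h, against 1.96%, 3.3% and 5.55% of all genes analyzed. Of the 166 lower genes, 19.9% (14.1 to 26.8), 23.5% (17.3 to 30.7) and 18.1% (12.5 to 24.8) were also lower, against 2.16%, 2.59% and 5.19%. Either way, 4.12%, 5.89% and 10.7% of all genes were past 1.5-fold at these times. All 6 shares lay above those of all genes, but calls the other way were also made. Past 1.5-fold in the opposite direction at 6, 24 and 48 h were 12, 7 and 19 of the 268 higher genes and 24, 3 and 17 of the 166 lower genes. With the values as deposited the shares at 6 h came to 4.99% of the higher and 29.9% of the lower genes, against 0.616% and 4.41% of all genes. The genes were not matched for level, and 103 of the higher and 53 of the lower genes were among the 1022 with the lowest levels. The larger part did not recur past 1.5-fold, with 175 of the higher genes (65.3%) and 104 of the lower genes (62.7%) having the same call at no later time.

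In direction alone, 46.6% of the higher genes were above 0 at 6 h, 72.0% at 24 h and 65.3% at 48 h, beside 51.6%, 49.6% and 47.1% of all genes. Of the lower genes, 53.0%, 77.7% and 60.2% were below 0, beside 48.4%, 50.4% and 52.9%. At 6 h these shares were thus near those of all genes. Across the 10215 genes, Pearson's r of the 0 h log2 ratio with that at 6, 24 and 48 h was -0.11, 0.36 and 0.19. After the level correction at each time it was 0.02, 0.33 and 0.18. Spearman's rho was -0.24, 0.35 and 0.18, and -0.13, 0.29 and 0.16 after that correction, so the rank relation at 6 h kept its negative sign. The genes are not independent replicates, and depth relative to WT was alike at 0 and 24 h and unlike at 6 h.

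**Figure D5:**
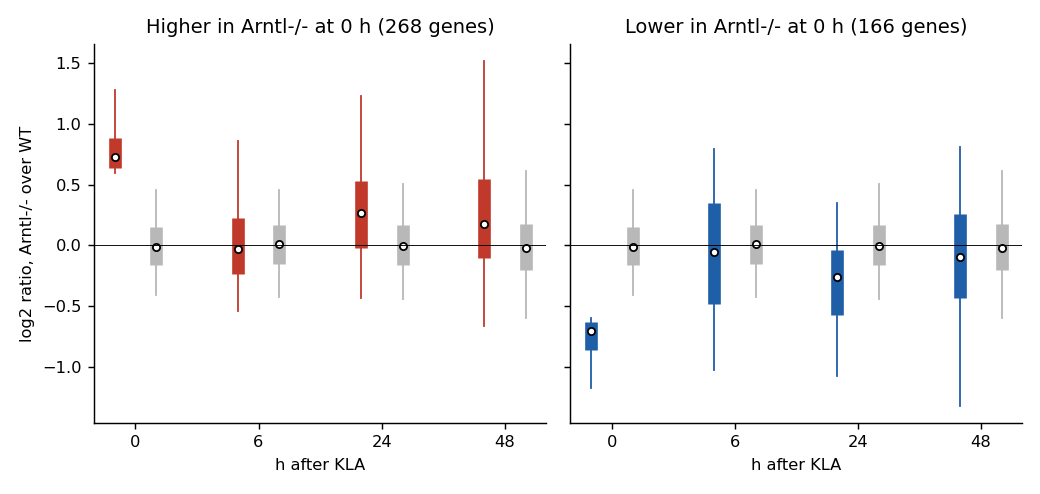
For the genes at least 1.5-fold higher (left, red) and lower (right, blue) at 0 h, the median (circle), quartiles (thick bar) and 5th to 95th percentile (thin line) of the log2 ratio at 0, 6, 24 and 48 h are shown beside those of all 10215 genes (grey); the 0 h values chose the genes. The medians of the higher genes were -0.03, 0.27 and 0.17 at 6, 24 and 48 h and those of the lower genes -0.06, -0.26 and -0.09.

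The genes past 1.5-fold in the same direction at all 4 times numbered 21, with 12 higher and 9 lower. The higher ones were Cry1, Per2, Cadm1 with Gm10677, Cx3cr1, Chil3, Ngp, Clec2i, Oaf, Itga1, Il23r and Ppfia4. The lower ones were Arntl, Nr1d1, Nr1d2, Col3a1, Postn, Sparc, Nid2, Aebp1 and Etl4. Il23r, the receptor subunit for interleukin-23, had 24.0 and 36.9 at 0 h, Itga1, the collagen-binding integrin alpha 1 subunit, 6.58 and 10.5, and Oaf 85.7 and 145. After the correction for level Il23r came to 0.55, under 1.5-fold, and with the values as deposited Sparc and Nid2 came to -0.56 and -0.58. Of the 8 interferon genes past 1.5-fold at 0 h and of Nos2, Il1b, Cxcl3 and Csf3, none was among the 21. The 21 were part of 434 genes past 1.5-fold at 0 h, so none among so few genes is near that share. Nos2 was past 1.5-fold at 24 and 48 h as well (1.25 and 0.94).

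Genes near the deleted gene were examined because the targeted allele and the control chromosome can differ there. Of 30 analyzed genes within 5 Mb of the start of Arntl on chromosome 7 of mm9, Arntl left out, none was past 1.5-fold. Within 10 Mb it was 4 of 84, all higher, and within 20 Mb 7 higher and 3 lower of 243 (4.12%), beside 5.13% of the 507 genes further away on the chromosome and 4.19% of the 9464 on other chromosomes. The 4 within 10 Mb were Trim6 (6.42 and 18.2), Trim34a (62.2 and 98.7), Gm8979 (17.8 and 31.4) and 2610020H08Rik (25.3 and 38.1). They lie at -8.98, -8.96, -7.13 and 6.59 Mb from the start of Arntl.

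The promoters of the genes that differed were searched for E-box letters, and the counting intervals of their shares included the share of all analyzed genes. CACGTG lay in the 250 bases before the start site of 16 of the 206 higher genes with a promoter entry (7.77%, 4.50 to 12.3) and of 14 of 126 lower genes (11.1%, 6.21 to 17.9). The share was 10.5% of the 7813 analyzed genes with an entry and 6.86% of all 27025 gene symbols of the promoter table. CACGTT on either strand, a motif added once the values were known, lay in 8.74% (5.26 to 13.5) of the higher genes, 6.35% (2.78 to 12.1) of the lower genes and 5.54% of the analyzed genes. A match describes the letters only, and the window leaves out every E-box further from the start site.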

How the data were processed

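PolyA RNA from BMDMs was sequenced by the authors as paired-end libraries, aligned with STAR to mm9, and counted by HOMER without regard to strand over the exons of RefSeq genes, keeping at most 3 tags per position by the stated setting, and the FPKM they deposited are scaled to 10000000 reads per library and divided by exon length. Read density nevertheless reached 30.7 per base at Rn45s at 0 h, so how the limit acted is not known. The deposited table held 24016 genes after 1 fragmentary line was left out, and 4 value columns that match no sample were not used.

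Groups were taken from the labels, with 1 library per genotype and time. Whole reads were recovered from the steps of the low FPKM values (100% within 0.1 of a whole number), and depth ranged from 8587560 to 27036783 reads on genes. Libraries were scaled by the median of ratios over the 8 libraries, and log2 ratios used a pseudocount of 0.1 among genes with a mean of at least 100 scaled reads. No test and no p-value was possible. Intervals are exact Clopper-Pearson intervals at 95%, and the detection limit was 3 reads. All 894 entries of 42 gene lists were found in the table.

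Named were Arntl, list members past 1.5-fold, clock genes, the genes the study names for resting cells, the 15 largest and 15 smallest ratios and the 5 genes with most reads opposite a library at 3 or fewer reads, each way. Further genes were named after their values were seen, namely the members of lists used as examples, the genes past 1.5-fold at all 4 times, those near the threshold and those near Arntl. The comparison, the lists and the rules were chosen with earlier results of these data known. Promoters came from RefSeq (GRCm38.p6), matched by symbol to 7813 of the 10215 genes. Steps were tested on simulated reads. Tools were scipy 1.17.1, statsmodels 0.14.6 (lowess), pandas 2.3.3, numpy 2.4.6 and matplotlib 3.10.9 under Python 3.11.15. Alternatives were other scalings, lowess corrections for level and length, pseudocounts of 0.01 and 1, other read minimums and a limit on read density. Single values of a few list members are not reported here.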

Additional observations from a re-analysis of the deposited data

Results flagged for a closer look

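For each gene named here, the single Arntl-/- library was past 1.5-fold on one side of its WT library at 0 h and past 1.5-fold on the other side at a later time. Each is 1 library against 1, and the difference between times was not tested. The log2 ratios turned upward at 6 h for Cebpb (-0.88 at 0 h, 0.87 at 6 h and 0.70 at 48 h), Tmem160 (-1.09 and 1.21), Lars2 (-1.14 and 1.06), Mir6236 (-1.52 and 1.25), Rn45s (-1.04 and 0.69), Rpl39 (-0.70 and 0.67) and Rps29 (-0.59 and 0.70), and Rabgap1l turned downward (1.25 and -0.65). The median of the 79 cytoplasmic ribosomal protein genes also changed sign, from -0.37 at 0 h to 0.58 at 6 h, both short of 1.5-fold. Depth turned between these times as well, the Arntl-/- library holding 1.39 times the reads of the WT library at 0 h and 0.572 times at 6 h, and its part in these values was not tested. At 48 h, Cd163 (-0.67 at 0 h and 1.41 at 48 h) and Dusp2 (-0.75 and 2.47) had turned upward, and Csf3 (0.68 and -1.10) and Scd1 (0.59 and -0.82) downward.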

How the results depend on the processing

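No paired analysis was possible because the 0 h comparison had 1 library per genotype. The number of genes at least 1.5-fold higher and lower at 0 h (268 and 166) followed the read minimum, with 596 and 412 at 25 scaled reads, 46 and 52 at 400, 2517 and 1618 with no minimum and 1282 and 986 at a scaled FPKM of at least 1. With 2-fold as the call they were 40 and 21, with the whole counting interval past 1.5-fold 73 and 49, and with the values as deposited 107 genes were lower. Recurrence of any size in the same direction was 46.6, 72.0 and 65.3% of the higher genes and 53.0, 77.7 and 60.2% of the lower genes at 6, 24 and 48 h, and as deposited the 1.5-fold share at 6 h was 4.99% and 29.9%, beside 0.616% and 4.41% of all genes. The ribosomal protein median came to -0.29 as deposited, -0.15 and -0.26 after the corrections for level and length, and -0.17 with at most 0.5 reads per base. The macrophage marker median was -0.16 as deposited and turned to 0.033 with the level correction, the NF-kB median was 0.29 with at most 0.5 reads per base, and the neutrophil median turned to -0.038 at 400 reads. Of the medians at least 0.1 in size, the others that turned were those of CC and CXC chemokines (0.10 with the level correction, 0.030 with no minimum and at a scaled FPKM of at least 1, 0.011 with at most 0.5 reads per base), Fc and scavenger receptors (0.047 with the level correction) and complement (0.54 with at most 0.5 reads per base). The medians of 9 further lists, all under 0.1 in size, changed sign under at least 1 alternative. Looser minimums test more genes, and the cause of the other shifts was not tested. Of 75 named genes past 1.5-fold, 15 fell under it under at least 1 scaling or pseudocount, namely Apoe, Marco, Rn45s, Rmrp, Rpl39, Rps29, Xaf1, Axl, Jund, Cd22, Cry2, Nid2, Il23r, Sparc and Scd1, and none changed sign. The counting interval of 312 of the 434 genes reached within 1.5-fold, and these genes were not split by their number of reads.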

Other observations

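Zinc finger genes named Zfp and a number, a group picked after the values were seen, held 13 of 214 analyzed genes at least 1.5-fold higher in Arntl-/- cells at 0 h and 1 lower, against 2.62% and 1.63% of all genes, with a median log2 ratio of 0.08. They were not matched for level, and 103 of the 1022 analyzed genes with the lowest levels were higher. By chromosome, the share of genes at least 1.5-fold higher ran from 1.07% (chromosome 19) to 5.19% (chromosome 13, 19 of 366 genes) among the autosomes and X. Non-coding RefSeq entries were 3.10% of the genes analyzed, 8.96% of the higher and 7.23% of the lower genes. Most of the genes past 1.5-fold, 391 of 434, were on none of the 42 lists.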
